A study of Mus musculus with 19 samples.

Results

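The genes described here are 10 members of the Hippo pathway, taken by symbol from the deposited expression table of mouse tongue epithelium. They are the coactivators Yap1 and Wwtr1, the 4 TEAD factors Tead1, Tead2, Tead3 and Tead4, the kinases Lats1 and Lats2, the scaffold Nf2 and the angiomotin Amotl2. All 10 have a row among the 24689 gene symbols of the table, and all 10 passed the filter on low values, at least 0.1 TPM, reads scaled for gene length and for the total of the mouse, in at least 3 mice, that left 22745 genes.

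Poly-A RNA of whole tongue epithelium was sequenced from 19 adult mice 15 days after transgene induction, 5 N, 5 E, 3 Y and 6 EY mice. E mice carry Krt14-CreERT, LSL-rtTA and tetON_E6-E7, the last encoding the papillomavirus oncoproteins E6 and E7. Y mice carry Krt14-CreERT, LSL-rtTA and tetON_YAP1S127A, a YAP protein that lacks a serine phosphorylated by LATS kinases, and EY mice carry both effectors. N mice 1, 2 and 3 have Krt14-CreERT and LSL-rtTA but no effector, N mouse 4 carries LSL-rtTA without Cre, and N mouse 5 carries Krt14-CreERT with both effectors and no rtTA. By the study's methods the lines share a tetON_H2B-GFP reporter, tamoxifen was injected into the tongue, and doxycycline was given in the diet from the first injection. The Krt14 promoter limits Cre, and so the effectors, to basal epithelial cells and their progeny, while the RNA is that of all cells in the dissected sheet.

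In the Hippo pathway, MST and LATS kinases, helped by scaffolds such as NF2, phosphorylate the coactivators YAP and TAZ, which are then held in the cytoplasm or degraded. Unphosphorylated YAP and TAZ enter the nucleus and bind TEAD factors, which contact the DNA. Some genes of the pathway, Lats2 and Amotl2 among them, are known targets of YAP and TEAD and encode proteins that restrain YAP, and in stratified epithelia nuclear YAP is known to promote the growth of basal cells.

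Because TPM divides reads by a length, the reads behind a value differ between genes. The read counts were recovered from the steps of the TPM values for 24679 of the 24680 genes above 0, all but mt-Co1. Summed without mt-Co1 they came to between 8196413 and 10841938 per mouse. At the median over mice, 1 TPM stood for 26.2 reads of Amotl2 and 356 reads of Tead1, so the length used for Tead1 was 13.6 times that used for Amotl2. The authors' notes used here do not give the length. Over 20438 genes with reads in N mouse 1, 96.9% of those there, the log of the length implied by the reads correlated at r = 0.999 with the gene span in GENCODE M21 (GRCm38, matched by symbol), introns included, and at r = 0.795 with the length of its exons. For Tead1 over Amotl2 the span gives 13.6 and the exons give 2.16. The values were thus divided by whole gene spans, so genes with long introns have low TPM for their reads, and a pseudocount weighs more on them. Levels of the 10 genes are therefore compared between mice for the same gene and not between genes. The marker sums given next weigh each gene by its deposited TPM, so they too are compared only between mice, and the gene named with a list is the one with the highest TPM and need not have the most RNA. The fewest reads were found for Tead2, 12 to 79 per mouse, and for Lats2, 36 to 206, while the other 8 genes had at least 130 in every mouse.

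The sheets held the transcripts of stratified epithelium, with all 9 markers on that list at a mean of at least 1 TPM and Krt13 the highest at a mean of 48941 TPM. The summed TPM of these 9 markers had medians of 114563, 103162, 83085 and 55483 in N, E, Y and EY mice, and the EY mice, up to 62626, lay below all N mice, which started at 73156. Without Krt13 the sums had medians of 41241, 34483, 38219.8 and 34105 in the same order and overlapped. Krt13, a keratin of suprabasal cells, had a median of 75465 TPM in N and 19696 in EY mice, and Krt14, a keratin of basal cells, 5279 and 17489. Summed skeletal muscle markers, led by Acta1, had medians of 43.9, 29.9, 12.3 and 154 TPM in N, E, Y and EY mice and reached 1229.4 in EY mouse 3, against at most 229.8 TPM in any other mouse. Without Acta1 the medians were 10.9, 9.54, 2.68 and 50.04. Leukocyte markers, led by S100a8, had medians of 149, 313, 580 and 701 TPM in the same order, and N mouse 1 reached 853. S100a8 alone had medians of 8.84, 21.4, 471 and 434 TPM, and the sum without it had medians of 145, 278, 109.5 and 267, so the high values in Y mice are those of S100a8. Fibroblast markers, led by Dcn, had medians of 86.4, 82.8, 34.6 and 73.0 TPM. Dcn alone had medians of 51.9, 29.7, 24.2 and 9.74 TPM, and the sum without it 34.5, 52.0, 17.3 and 64.9, with ranges in N and EY mice that overlap. Smooth muscle and pericyte markers, led by Notch3, had medians of 17.1, 14.8, 15.4 and 19.8 TPM, or 3.61, 3.82, 5.54 and 10.1 without Notch3. Endothelial markers, led by Tie1, had medians of 0.934, 1.27, 0.801 and 1.84 TPM, at most 5.64 in any mouse, or 0.595, 0.287, 0.229 and 0.747 without Tie1. No marker of any list was at 0 in every mouse. The part of these cell types in the results below was not tested beyond leaving out single mice, and in bulk RNA more cells of a type and more RNA per cell cannot be told apart.

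Each gene was compared with limma on log2(TPM + 0.1), in 1 model with a mean per group fitted to all 22745 genes. A gene was called at a Benjamini-Hochberg adjusted p below 0.01 with an absolute log2 fold change above 1. On this scale a pseudocount understates the change of genes at low TPM. The comparisons of EY, Y and E with N share the same 5 N mice, so their values are given side by side and not as independent results. Over all genes, the median log2 fold change from N was 0.33, 0.13 and 0.07 in EY, Y and E epithelia. Median-of-ratios scaling of each mouse brought these medians to 0.01, -0.03 and -0.02, and values after this scaling are given where they bear on a direction.

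In EY epithelia 4 of the 10 genes were called, Tead1, Tead4, Lats2 and Amotl2, and all 4 were higher than in N, where 18.3% of all genes tested were called in either direction and 12.6% as higher. In Y epithelia 1 of 10, Amotl2, was called, with 4.58% of all genes called. None of the 10 was called by limma in E epithelia, where 1.20% of all genes were called. At an unadjusted p below 0.05 there were 2 in E, Tead2 and Tead4, where 14.8% of all genes were, and limma voom on the recovered reads also called 0. The mice of EY and N did not overlap for 4 of the 10 genes, as for 27.4% of all genes. Those of Y and N did not overlap for 4, as for 21.1%, and those of E and N for 0 of 10, as for 4.57%. The 10 genes had median log2 fold changes of 0.61, 0.22 and 0.04 in EY, Y and E epithelia, and 0.26, 0.04 and -0.07 after scaling.

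**Figure D1:**
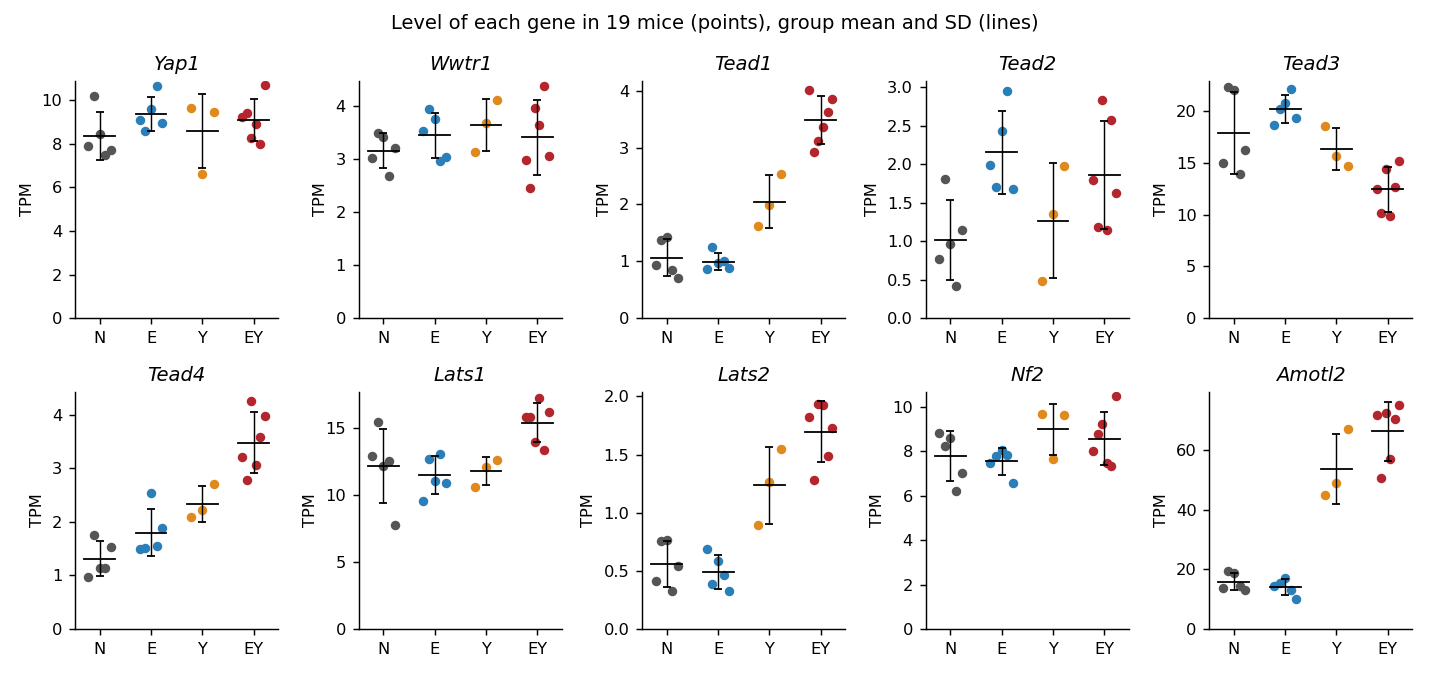
TPM of the 10 genes in each mouse (points) by group, with the group mean and SD as lines and every axis from 0. Amotl2 lies between 45.0 and 75.1 TPM in all Y and EY mice and at most at 19.3 TPM in N and E mice, while Yap1, Wwtr1 and Nf2 overlap across the 4 groups.

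Yap1 encodes YAP, the coactivator whose active form is the transgene of Y and EY mice. Its level was 7.88, 10.2, 8.46, 7.48 and 7.70 TPM in N mice 1 to 5 and 9.08, 8.59, 9.57, 10.6 and 8.93 TPM in the E mice. In Y mice it was 9.65, 6.62 and 9.45 TPM, and in the 6 EY mice it ran from 7.99 to 10.7 with a median of 9.07 TPM. All 4 groups overlap, and Y mouse 2 has the lowest value of the 19 mice. The log2 fold change against N was 0.12 in EY (standard error 0.11, adjusted p = 0.424 in limma), 0.03 in Y (adjusted p = 0.925) and 0.17 in E epithelia (adjusted p = 0.586). After median-of-ratios scaling the EY and Y values turned to -0.25 and -0.17, so no direction can be given. The transgene has no entry of its own in the table, and which of its reads fall on Yap1 was not tested. The Yap1 values are thus no measure of whether the transgene was expressed, which the study reports for Y and EY epithelia.

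Wwtr1 encodes TAZ, the paralog of YAP. Its TPM ran from 2.68 to 3.49 in N mice (median 3.21) and from 2.97 to 3.95 in E mice (median 3.53). In Y mice it ran from 3.14 to 4.11 (median 3.69), and in EY mice from 2.46 to 4.38 (median 3.36). The groups overlap, and the EY mice span the widest range. Its log2 fold change against N was 0.09 in EY (adjusted p = 0.673 in limma), which turned to -0.28 after scaling, and 0.20 in Y and 0.12 in E epithelia (adjusted p = 0.507 and 0.810). The ratio of Yap1 to Wwtr1 within a mouse depends neither on the lengths used, once divided by its median in N, nor on the scaling of the mouse. It had medians of 1.06, 0.880 and 0.986 in EY, Y and E mice, with ranges that all include 1.

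TEAD factors bind DNA through a shared domain, and the stretch before the start of several genes of the pathway holds the core letters of their known motif. In the RefSeq windows of GRCm38.p6, which hold 8 of the 10 genes in 13 windows, the letters GGAATG were searched on both strands (CATTCC on the other) from 250 bases before to 30 bases after each start. Tead1 and Tead4 have no entry. The letters were found in 7 windows of 5 genes, Yap1, Wwtr1, Tead3, Lats2 and Amotl2, and in 13.9% of all 32851 windows of this length. The 2 windows of Wwtr1 share a single match. The stretches around the matches of the coactivators and around a pair of matches of Tead3 are shown with the letters in capitals, all read on the minus strand, from chr9:8004712-8004757, chr3:57576021-57576066 and chr17:28350698-28350743. A match is a description of these letters and does not show that a factor binds there.
Yap1: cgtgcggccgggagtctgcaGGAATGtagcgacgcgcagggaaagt
Wwtr1: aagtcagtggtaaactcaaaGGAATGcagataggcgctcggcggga
Tead3: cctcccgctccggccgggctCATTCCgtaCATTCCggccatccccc

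Tead1 was at 0.939, 1.38, 1.43, 0.854 and 0.705 TPM in N mice 1 to 5 and at 0.862, 1.26, 0.968, 1.01 and 0.885 TPM in the E mice. It was at 1.62, 2.00 and 2.53 TPM in the Y mice and between 2.92 and 4.01 TPM, with a median of 3.50, in the EY mice. N and E overlap, every Y mouse lies above them, and every EY mouse lies above every Y mouse. Against N the log2 fold change was 1.66 in EY (standard error 0.19, adjusted p = 1.67e-06 in limma; 1.31 after scaling) and the gene was called. In Y it was 0.91 (standard error 0.23, adjusted p = 0.0104), just outside both limits. Without N mouse 2 or N mouse 3 it was called there, with log2 fold changes of 1.01 and 1.03 (adjusted p = 0.00672 and 0.00588), while over all other settings and mice left out it was not. In E epithelia the value was -0.05 (adjusted p = 0.960).

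Tead4 was at 0.968, 1.76, 1.15, 1.14 and 1.53 TPM in N mice 1 to 5 and at 1.496, 1.52, 2.53, 1.55 and 1.89 TPM in the E mice. It was at 2.08, 2.22 and 2.71 TPM in the Y mice and between 2.78 and 4.26 TPM, with a median of 3.39, in the EY mice. The EY mice lie above all others, the Y mice lie above all N mice, and E mouse 3 reaches into the range of the Y mice. Its log2 fold change against N was 1.36 in EY epithelia (standard error 0.18, adjusted p = 1.12e-05 in limma), called, and 1.00 after scaling, at the limit on the fold change. It was 0.81 in Y (adjusted p = 0.0175) and 0.43 in E epithelia (adjusted p = 0.293), and neither was called.

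Tead3 was at 14.97, 22.3, 22.1, 13.9 and 16.3 TPM in N mice 1 to 5 and at 18.7, 20.2, 20.7, 22.1 and 19.4 TPM in the E mice. It was at 18.6, 15.7 and 14.7 TPM in the Y mice and between 9.86 and 15.2 TPM, with a median of 12.6, in the EY mice. The EY mice lie below all E mice but overlap with N mice 1 and 4. The log2 fold change against N was -0.51 in EY epithelia (standard error 0.14, adjusted p = 0.00690 in limma), inside the limit on the fold change, so it was not called; it was -0.88 after scaling. Without N mouse 2 or N mouse 3, the adjusted p was 0.0236 and 0.0244. Of the 10 genes, 5 had an adjusted p below 0.01 in EY epithelia whatever the fold change, against 31.9% of all genes, and Tead3 was the only one of them that was lower than in N.

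Tead2 was at 0.764, 1.80, 0.965, 0.412 and 1.15 TPM in N mice 1 to 5, and between 1.68 and 2.95 TPM in E, 0.484 and 1.97 TPM in Y and 1.15 and 2.83 TPM in EY mice. N mouse 2 lies within the range of the E mice, and the Y mice span nearly the whole range of N. The log2 fold change was 1.11 in E (standard error 0.38, adjusted p = 0.141 in limma), 0.86 in EY (adjusted p = 0.0663) and 0.24 in Y epithelia (adjusted p = 0.773), with no call. After scaling these were 1.01, 0.52 and 0.06. A pseudocount of 1 TPM brought the E and EY values of Tead2 to 0.66 and 0.50. With as few as 12 reads in a mouse, its values are the least precise of the 10 genes.

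Ratios to Tead3 within each mouse, divided by their median in N, compare the factors without the scaling of the mouse. Tead1 over Tead3 ran from 0.702 to 1.05 in N mice and from 0.740 to 1.01 in E mice. In Y mice it ran from 1.42 to 2.79 and in EY mice from 3.50 to 5.54, with medians of 0.749, 2.06 and 4.65 in E, Y and EY. The EY mice lie above all Y mice, and these above all N and E mice. Tead4 over Tead3 had medians of 1.01, 1.79 and 3.52 in E, Y and EY mice, and Tead2 over Tead3 2.09, 1.68 and 2.55. Relative to Tead3 the EY mice thus lie above every N mouse for all 3 of the other factors. For Tead2 over Tead3 the E mice, at 1.65 or more, also lie above the N mice, at most at 1.58. Tead3 itself was lower in EY epithelia, at a log2 fold change of -0.51, so each ratio also holds the change of Tead3. In TPM, Tead2 overlaps between EY and N mice. These ratios were taken after the values of single genes were seen, and no test was made of them.

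**Figure D2:**
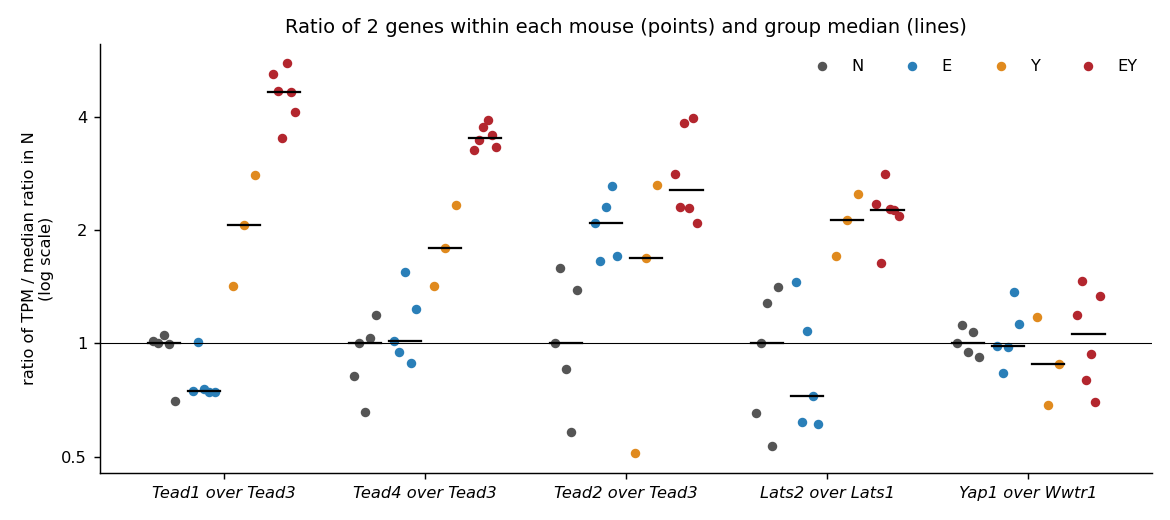
Ratio of the TPM of 2 genes within each mouse (points), divided by the median ratio of N mice, on a log scale, with group medians as lines. Tead1 over Tead3 is at 3.50 or more in every EY mouse and at most 1.05 in N mice, and Yap1 over Wwtr1 stays around 1 in all groups.

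Lats1 and Lats2 are the kinases that phosphorylate YAP and TAZ, and NF2 brings them to the membrane. For Lats2 and for Amotl2, described next and both known targets of YAP, the windows that hold the motif letters are printed whole, with the letters in capitals. That of Lats2 is chr14:57746094-57746373 on the minus strand, 1 of its 2 starts, where the letters lie just after the start. That of Amotl2 is chr9:102717554-102717833 on the plus strand, where they begin 65 bases before the start.
Lats2: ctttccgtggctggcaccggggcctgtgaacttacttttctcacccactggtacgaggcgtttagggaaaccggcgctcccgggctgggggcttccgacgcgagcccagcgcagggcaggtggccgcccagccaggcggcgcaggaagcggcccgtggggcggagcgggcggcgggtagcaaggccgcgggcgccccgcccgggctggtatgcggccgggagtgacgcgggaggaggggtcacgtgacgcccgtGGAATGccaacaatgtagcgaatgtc
Amotl2: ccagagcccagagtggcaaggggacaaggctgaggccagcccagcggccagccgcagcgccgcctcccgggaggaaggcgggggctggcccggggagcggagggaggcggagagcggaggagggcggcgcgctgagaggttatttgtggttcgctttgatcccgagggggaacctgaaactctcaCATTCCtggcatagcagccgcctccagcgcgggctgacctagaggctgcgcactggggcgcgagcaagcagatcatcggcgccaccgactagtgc

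Lats2 was at 0.415, 0.759, 0.763, 0.329 and 0.541 TPM in N mice 1 to 5 and at 0.685, 0.386, 0.585, 0.467 and 0.328 TPM in the E mice. It was at 0.892, 1.27 and 1.55 TPM in the Y mice and between 1.28 and 1.93 TPM, with a median of 1.78, in the EY mice. All Y and EY mice lie above all N and E mice, and Y and EY overlap. The log2 fold change against N was 1.48 in EY epithelia (standard error 0.24, adjusted p = 6.45e-05 in limma; 1.15 after scaling), called. For Y it was 1.04 (standard error 0.28, adjusted p = 0.0185), not called. On the recovered reads with limma voom the Y value was 1.10 with an adjusted p of 0.00801, a call. A pseudocount of 1 TPM, above the level of this gene in every N mouse, brought the EY value to 0.79, under the limit.

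Lats1 was at 12.9, 15.4, 12.1, 12.5 and 7.77 TPM in N mice 1 to 5, between 9.56 and 13.1 TPM in E, 10.6 and 12.6 TPM in Y, and 13.4 and 17.2 TPM in EY mice. N mouse 2 lies within the range of the EY mice. Its log2 fold change was 0.37 in EY epithelia (adjusted p = 0.0411 in limma), close to the 0.33 of the median gene, and -0.01 after scaling. The ratio of Lats2 to Lats1, divided by its median in N, ran from 0.534 to 1.41 in N mice and from 0.612 to 1.45 in E mice. In Y mice it ran from 1.71 to 2.49 and in EY mice from 1.64 to 2.81, so the Y and EY mice lie above the others also without the scaling.

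Nf2 had median levels of 8.27, 7.78, 9.63 and 8.40 TPM in N, E, Y and EY mice, over a range of 6.22 to 10.5 TPM. All groups overlap with N. Its log2 fold change was 0.14 in EY (adjusted p = 0.376 in limma), 0.21 in Y (adjusted p = 0.354) and -0.03 in E epithelia (adjusted p = 0.949). After scaling these were -0.23, 0.015 and -0.15.

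Amotl2, a junction protein that binds YAP and holds it out of the nucleus, was at 13.6, 19.3, 18.6, 14.5 and 13.2 TPM in N mice 1 to 5 and at 14.5, 15.4, 17.0, 13.0 and 10.2 TPM in the E mice. It was at 45.0, 49.1 and 67.0 TPM in the Y mice and between 50.5 and 75.1 TPM, with a median of 71.2, in the EY mice. The Y and EY mice overlap and lie far above all N and E mice. Its log2 fold change against N was 2.06 in EY epithelia (standard error 0.16, adjusted p = 1.65e-08 in limma). For Y it was 1.75 (standard error 0.19, adjusted p = 1.07e-05). After scaling these were 1.69 and 1.55, and both were called. In E epithelia it was -0.18 (adjusted p = 0.698). Its value in EY epithelia was 2.03 without EY mouse 3, which had the highest skeletal muscle sum, and 2.01 without N mouse 1, which had the highest leukocyte sum. Without EY mouse 3 the EY values of Tead1, Tead4 and Lats2 were 1.69, 1.30 and 1.44, and all 3 were still called.

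**Figure D3:**
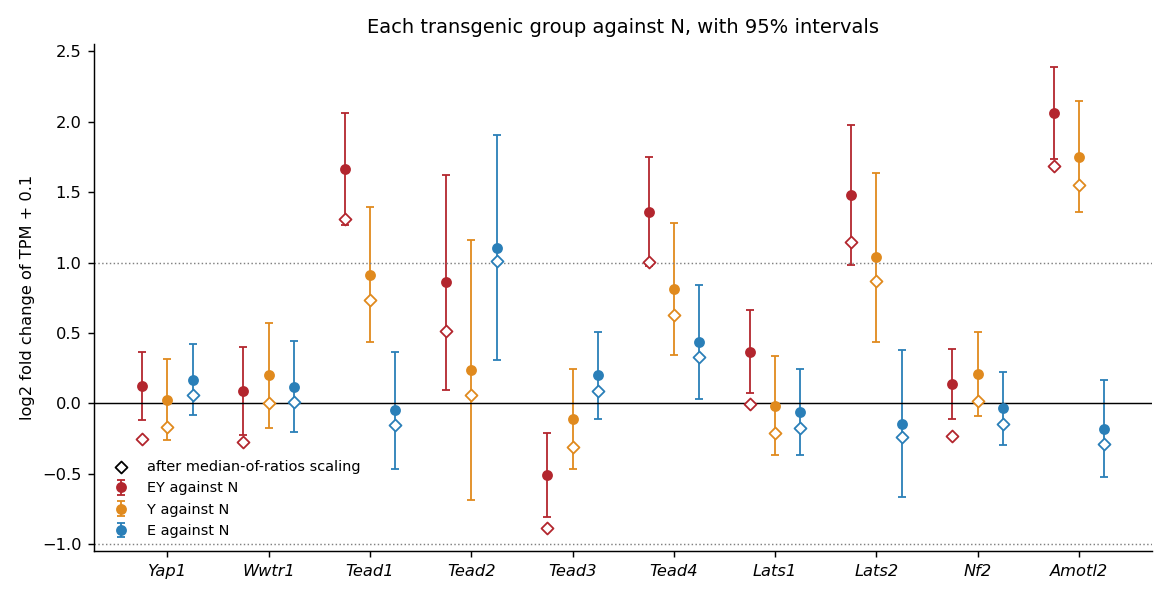
Log2 fold change of TPM + 0.1 against N for EY, Y and E epithelia (filled points, with 95% intervals from limma) and after median-of-ratios scaling (open diamonds), with dotted lines at the limits of -1 and 1. Amotl2, Tead1, Lats2 and Tead4 have the highest EY values, from 2.06 to 1.36, and the EY diamonds of Yap1, Wwtr1 and Nf2 lie below 0.

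Between the transgenic groups, the comparison of EY with E shows the values that go with the YAP transgene on top of E6-E7. Here 3 of the 10 genes were called, Tead1, Lats2 and Amotl2, all higher in EY, where 12.8% of all genes were called and 7.82% as higher. Their log2 fold changes were 1.71, 1.63 and 2.24 (adjusted p = 2.18e-06, 3.64e-05 and 2.00e-08 in limma). Tead4 was at 0.93 (adjusted p = 0.000667), and at 1.05, a call, without E mouse 3. Tead3 was at -0.71 (adjusted p = 0.000657 in limma), inside the limit on the fold change, and every EY mouse lies below every E mouse. For Tead1, Tead4, Lats1, Lats2 and Amotl2 every EY mouse lies above every E mouse. The share of all genes without overlap between EY and E was not counted.

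The comparison of EY with Y shows the values that go with E6-E7 on top of the YAP transgene. By limma 0 of the 10 genes were called, where 2.00% of all genes were. At an unadjusted p below 0.05 there were 4, Tead1, Tead3, Tead4 and Lats1, where 23.9% of all genes were, and limma voom called 0. The lowest adjusted p was that of Tead1, with a log2 fold change of 0.75 (95% interval 0.28 to 1.21, adjusted p = 0.0421). By limma voom it was 0.71 with an adjusted p of 0.00986, inside the limit on the fold change. In TPM the EY mice lie above the 3 Y mice for Tead1, Tead4 and Lats1. The share of all genes for which this holds was not counted. After scaling, the log2 fold changes of Tead1, Tead4 and Lats1 were 0.58, 0.37 and 0.21. Without scaling, Amotl2 was at 0.31 (95% interval -0.07 to 0.69, adjusted p = 0.313 in limma) and Lats2 at 0.44 (95% interval -0.14 to 1.03, adjusted p = 0.346). The interaction, EY - E - Y + N, asks whether EY differs from the sum of both single effects on the log2 scale, not in TPM. It called 0 of 10 genes by limma, with 0.176% of all genes called, 2 at an unadjusted p below 0.05, as 13.5% of all genes, and 0 by limma voom. Those 2 were Tead1 at 0.80 (standard error 0.30, adjusted p = 0.234) and Tead3 at -0.60 (standard error 0.22, adjusted p = 0.229).

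The pathway was also described with a wider list of 71 genes in 13 roles that holds the 10 genes. Vgll1 and Dchs2 have no row, and Fat3, Fat4, Dchs1 and Strip2 are below the filter, which left 65 genes, of which 55 are outside the 10. Of the 65, 12 were called in EY epithelia, all higher than in N. This is 18.5%, beside 18.3% of all genes called in either direction and 12.6% called as higher. In Y epithelia 5 were called, all higher, 7.69% beside 4.58% of all genes in either direction and 3.47% as higher. In E epithelia 0 were called by limma, beside 1.20%, where 9 had an unadjusted p below 0.05, 13.8% beside 14.8%, and limma voom called 0. The 65 had median log2 fold changes of 0.36, 0.19 and 0.04 in EY, Y and E epithelia, against 0.33, 0.13 and 0.07 for all genes, and -0.01 in EY after scaling. Outside the 10 genes, 8 were called in EY, Vgll3, Map4k1, Wwc1, Wwc2, Ajuba, Wtip, Ywhah and Strn3, and 4 in Y, Vgll3, Wwc2, Ajuba and Wtip.

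Wwc2, a scaffold of the KIBRA family that helps to activate LATS, had a mean of 0.416 ± 0.0976 TPM (SD, n = 5) in N mice and rose to 1.88 ± 0.330 in the 3 Y mice and 2.57 ± 0.166 in the 6 EY mice. Its log2 fold changes were 2.39 and 1.95 in EY and Y epithelia (adjusted p = 3.22e-08 and 2.90e-05 in limma). Its relative Wwc1 was at 1.08 in EY (adjusted p = 9.71e-06), under the limit at 0.71 after scaling, 0.77 after quantile normalization and 0.95 by limma voom, and, not called, at 0.81 in Y.

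The LIM proteins Ajuba and Wtip bind LATS kinases and lower their activity. Wtip, at 2.38 ± 0.573 TPM (SD, n = 5) in N mice, rose to 8.18 ± 0.153 in the 3 Y mice and 8.16 ± 0.943 in the 6 EY mice, with log2 fold changes of 1.77 and 1.76 (adjusted p = 4.72e-06 and 3.56e-08 in limma). In E mice it was at 4.22 ± 0.623 TPM (n = 5), a log2 fold change of 0.82 with an adjusted p of 0.00317, inside the limit on the fold change. Ajuba was at 1.29 in EY and 1.03 in Y epithelia (adjusted p = 4.27e-06 and 0.00135), or 0.91 and 0.84 after scaling, under the limit.

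Vgll3, a cofactor that binds TEADs in place of YAP, was at 1.52 ± 0.305 TPM (SD, n = 5) in N mice and rose to 4.43 ± 0.771 in the 3 Y mice and 4.78 ± 1.38 in the 6 EY mice, with log2 fold changes of 1.49 and 1.57 (adjusted p = 0.00105 and 1.93e-05 in limma). In E mice it was at 1.27 ± 0.381 TPM (n = 5; adjusted p = 0.688). The other genes called in EY only were the 14-3-3 gene Ywhah at 1.63, the phosphatase complex subunit Strn3 at 1.19 and the kinase Map4k1 at 1.07 (adjusted p = 3.56e-07, 1.29e-06 and 0.00325), of which Strn3 and Map4k1 fell under the limit after scaling, at 0.82 and 0.73. In Y epithelia Ywhah was at 0.94 and Strn3 at 0.84, and Map4k1 at 0.06. That a gene was called in EY and not in Y does not show that the groups differ, and none of the 65 genes was called between EY and Y by limma, beside 2.00% of all genes. There 18 had an unadjusted p below 0.05, 27.7% beside 23.9%, and limma voom called 0.

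By role, 0 of 2 coactivators, 2 of 4 TEAD factors, 1 of 3 TEAD cofactors, 1 of 7 genes of the core kinase cassette and 1 of 10 other upstream kinases were called in EY epithelia, beside 18.3% of all genes. So were 2 of 4 upstream scaffolds, 1 of 4 angiomotins and PTPN14, 0 of 3 atypical cadherin genes, 2 of 3 Ajuba family genes, 1 of 7 14-3-3 genes, 0 of 4 genes of YAP degradation, 1 of 8 of the STRIPAK phosphatase complex and 0 of 6 RASSF genes. A difference between roles was not tested. Without scaling no gene of the list was called as lower. After median-of-ratios scaling, 11 of the 65 were called in EY epithelia, 16.9% beside 15.4% of all genes under the same scaling. Of these 8 were higher, 12.3% beside 6.77%, and 3 lower, 4.62% beside 8.67%. The 3 lower are the RASSF genes Rassf3, Rassf5 and Rassf6, at -1.03, -1.17 and -1.10 (adjusted p = 0.000178, 1.74e-07 and 0.000280), which were at -0.69, -0.80 and -0.75 without scaling.

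**Figure D4:**
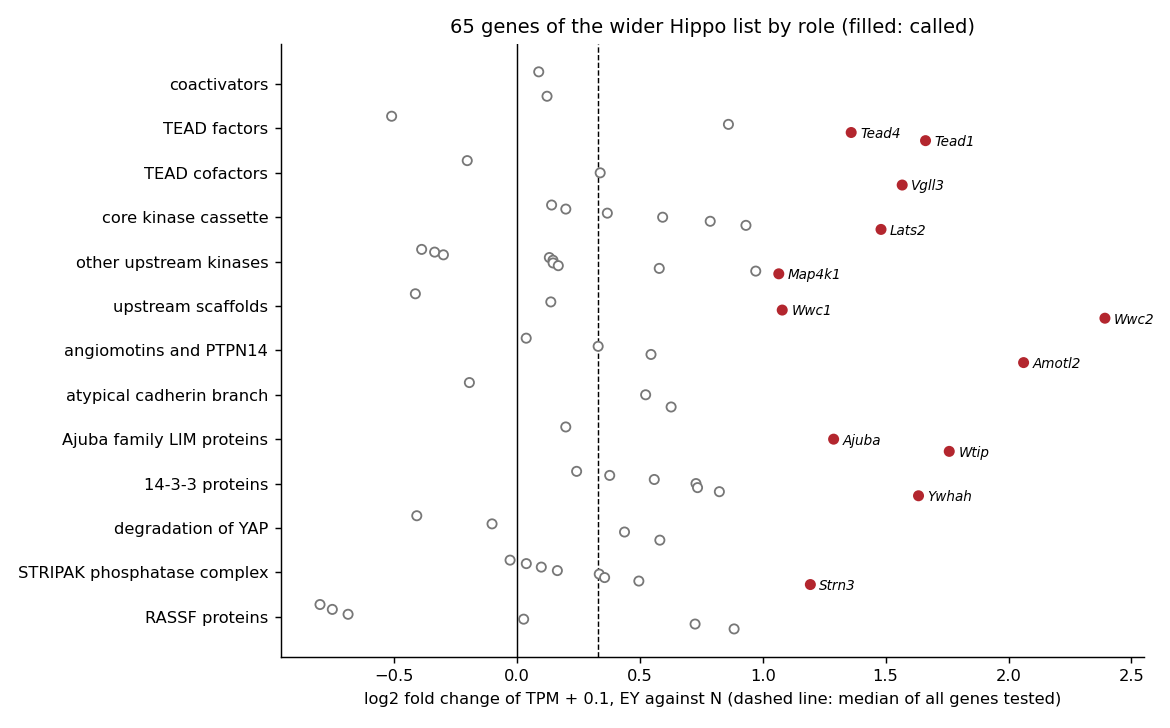
Log2 fold change in EY against N epithelia of 65 genes of the wider Hippo list by role, with called genes filled and named and the median of all genes tested as a dashed line at 0.33. The highest is Wwc2 at 2.39, followed by Amotl2 at 2.06, and no gene called without scaling lies below 0.

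Among the other 15603 genes with a mean of at least 1 TPM, those most like Amotl2 over the 19 mice were Wwc2 (Pearson r = 0.980), Myo1c (0.977) and Mgat4a (0.970). Taken as deviations from the group means, these correlations were 0.542, 0.660 and 0.492, so much of the likeness over 19 mice lies between the groups. Myo1c was at 22.6 ± 4.22 and 24.0 ± 2.52 TPM (SD, n = 5 each) in N and E mice, and at 57.3 ± 4.99 (n = 3) and 66.8 ± 7.22 (n = 6) in Y and EY mice. Mgat4a was at 0.740 ± 0.121, 0.697 ± 0.158, 2.28 ± 0.654 and 3.34 ± 0.374 TPM in the same order. Those most like Yap1 were Tnpo2 (r = 0.849), Cmip (0.821) and Gtpbp1 (0.793), and within groups the values were 0.873, 0.840 and 0.798, so here the likeness lies between mice of the same group. The r of Amotl2 is between genes that differ by group and that of Yap1 between genes that vary with the mouse, and both are given as descriptions of n = 19 mice.

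**Figure D5:**
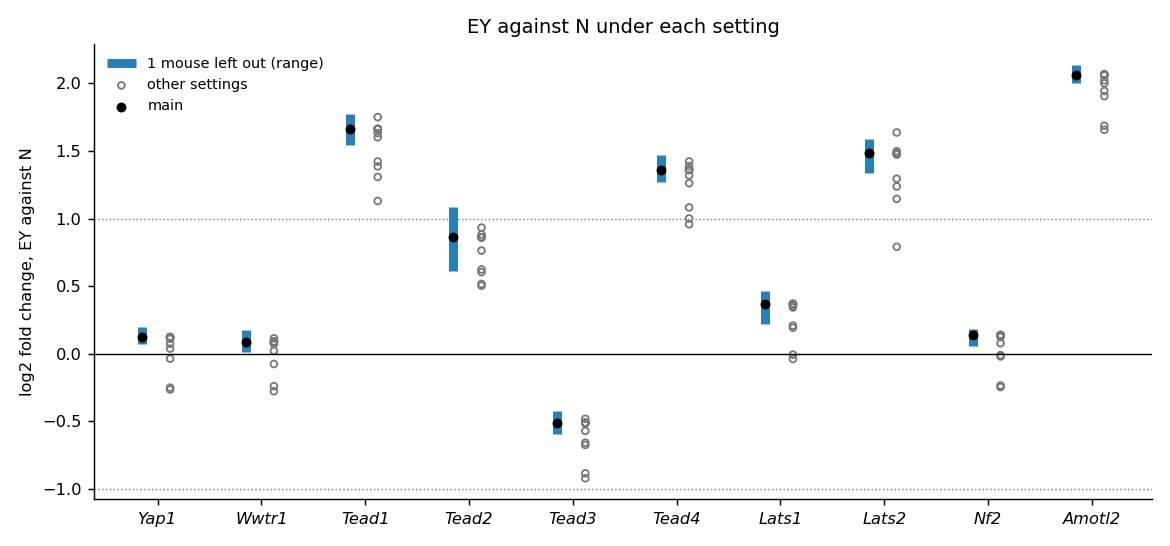
Log2 fold change in EY against N of the 10 genes in the main model (black), its range when each of 19 mice is left out (blue bars) and its value under each other setting (circles). Amotl2 and Tead1 stay above 1 throughout, Tead4 and Lats2 drop below 1 with a pseudocount of 1 TPM, and Yap1, Wwtr1, Lats1 and Nf2 change sign.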

How the data were processed

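RNA of 19 tongue epithelia was analysed, 1 library per mouse, with groups from the labels. Per the study's methods and processing notes, the authors used STAR 2.7.9 on GRCm39, SAMtools 1.7, HTSeq 0.13.5 for counts per gene and DESeq2 1.34.0 for tests. The authors deposited TPM values, each mouse summing to 1000000; how counts became TPM is not given in their notes, and the length was read from the reads per TPM and GENCODE M21. Because TPM are not counts, limma 3.58.1 in R 4.3.3 (lmFit, eBayes with trend) was fitted genome-wide to log2(TPM + 0.1), and p-values were adjusted over all 22745 genes. Whole reads were recovered within a tolerance of 0.01 for 24679 genes and used for depth and limma voom. The steps were tested on simulated data. Alternatives were the pseudocount, the filter, the scaling, the N mice, the samples in the fit, the replicate block, robust eBayes, voom, the thresholds and each mouse left out. Named were the 10 genes and every gene of the wider list called against N with or without scaling. So were the 3 genes most like Amotl2 and Yap1 by Pearson r. Of each marker list the most abundant gene and any at 0 in every mouse were named, and of the epithelial list every gene. Of the planned marker lists 1 was left out after the fit for a reason other than its values. The genes and lists were chosen with earlier results of these data known. No transgene has an own entry. Tables and figures used Python 3.11.15, pandas 2.3.3, numpy 2.4.6 and matplotlib 3.10.9.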

Additional observations from a re-analysis of the deposited data

Results flagged for a closer look

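In 48 sets of values, the 10 genes and 6 marker sums in the N, E and EY mice, 4 single values stood apart from their group by Dixon's criterion at 95%, where chance gives about 1 in 20. None was a value of the 10 genes. The skeletal muscle sum was 229.8 TPM in N mouse 2 (next 60.2), 121 TPM in E mouse 5 (next 34.8) and 1229.4 TPM in EY mouse 3 (next 205). The leukocyte sum was 853 TPM in N mouse 1 (next 321). The part of these cells in the results was not tested beyond leaving out each mouse.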

How the results depend on the processing

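With each mouse left out, calls among the 10 genes stayed at 4 in EY and at 0 in E, EY against Y and the interaction. They ranged from 1 to 2 in Y and 3 to 4 for EY against E. A pseudocount of 1 TPM, above Lats2 in N, left 2 in EY (all genes 2905) and 2 for EY against E (1965). In Y, 2 were called by voom (all genes 1077) and 2 at an adjusted p below 0.05 (1599). With no limit on the fold change 5 were called for EY against E, beside 25.3% of all genes. For the wider list (added after the data were seen) 12 in EY became 8 with that pseudocount and 11 to 14 with a mouse left out, and 5 in Y became 3 to 7. With no fold change limit that list had 30 in EY, 12 in Y, 1 in E and, for EY against E, 26 in place of 9. These are 46.2%, 18.5%, 1.54% and 40.0%, beside 31.9%, 8.51%, 1.75% and 25.3% of all genes.

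The 10 genes had 50 results, each for 1 gene in 1 comparison, with 1500 log2 fold changes under other settings. Of the 1500, 1452 kept their direction and side of the threshold. In 13 of the 50 results, 41 values changed sign, none where the gene was called. In EY, Yap1 turned from 0.12 to -0.25 with median-of-ratios scaling, -0.26 with quantile normalization and -0.036 with voom, and Wwtr1 from 0.09 to -0.28, -0.24 and -0.075. Nf2 turned from 0.14 to -0.23, -0.25 and -0.019, and to -0.0097 with only the 3 N mice with Cre and rtTA, and Lats1 from 0.37 to -0.0062 and -0.038 with the 2 scalings. Yap1 in Y turned from 0.03 to -0.17, -0.18 and -0.070 with the same 3 settings and to -0.056 with those 3 N mice. Yap1 in EY against Y turned from 0.09 to -0.081 and -0.086 with the 2 scalings, and Nf2 in EY against E from 0.17 to -0.088 and -0.095. The interaction is not among the 1500; with these 2 and voom only its Tead4 value changed sign, 0.11 to -0.028 (quantile). With 1 mouse left out, the ranges that include 0 were, in Y, -0.067 to 0.20 for Yap1, -0.15 to 0.76 for Tead2 and -0.17 to 0.078 for Lats1; in E, -0.17 to 0.064 for Tead1, -0.21 to 0.035 for Lats1 and -0.11 to 0.014 for Nf2; -0.079 to 0.19 for Yap1 in EY against Y; and -0.11 to 0.056 for Wwtr1 in EY against E. Scaling and quantile normalization move the values of each mouse by construction; otherwise the cause was not tested.

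Of all genes, 4157 were called in EY and 7248 with no limit on the fold change. In Y 1042 were called, but 656 with the 3 N mice, 555 with only the groups compared, 1599 at an adjusted p below 0.05, 1935 with no limit and 639 to 1039 with a mouse left out. In E it was 274, but 145 with only the groups compared and 414 at 0.05. EY against Y gave 454, but 198 with only the groups compared, 865 at 0.05, 803 with no limit and 200 to 496 with a mouse left out. EY against E gave 2914, but 5746 with no limit. The interaction gave 40, but 117 by voom, 148 at 0.05 and 28 to 73 with a mouse left out, and it has no value with only the groups compared. Among calls in EY 68.8% were higher, but 43.8% with median-of-ratios scaling and 46.0% with quantile normalization; these shares were 75.8%, 57.2% and 62.6% in Y, 53.5%, 30.3% and 30.1% for EY against Y, and 61.1%, 38.9% and 40.1% for EY against E. For EY against Y the share was 74.2% with only the groups compared and 41.5% to 65.3% with a mouse left out.

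The mouse numbers were taken as names: over 24 pairs of the same number in other groups, deviations from the group means correlated at a median of 0.015 and at most 0.074, beside -0.0073 and 0.082 over 109 other pairs. Of 19 mice 8 correlated best with their own number, where the number of candidates alone gives 3.42. With the replicate block the 10 genes gave 4, 1, 0, 0, 3 and 0 calls in EY, Y, E, EY against Y, EY against E and the interaction, and all genes 3989, 861, 221, 320, 2814 and 27. Low reads limit Tead2 and Lats2 most, and 3 Y mice limit each comparison with Y.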
